A study of Mus musculus with 6 samples.

Results

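Meg3, Rian and Mirg are long noncoding RNAs from the imprinted Dlk1-Dio3 domain of mouse chromosome 12, and they are described here with 7 other imprinted genes: Dlk1 and Dio3 from the same domain, H19, Igf2, Cdkn1c and Peg3 on chromosome 7, and Copg2 on chromosome 6. The 10 genes were listed because Meg3 and Rian were higher in the livers labelled FTO knockout. The list was thus chosen by measured FPKM in the comparison described here. The values of Meg3, Rian and Mirg are given as a description with no test. All 10 had a row among the 25690 genes of the table. RNA of hepatic tissue was sequenced in 3 libraries from wildtype control mice and 3 libraries from mice with a hepatic FTO knockout, and FTO is the enzyme that removes the methyl group from N6-methyladenosine (m6A) in RNA. The sources used here do not give the strain, age, sex or the way the gene was deleted in liver. Separate animals are not stated for the libraries either, so each p-value reflects only variation among these 6 samples, which may be technical. All levels are FPKM, fragments scaled to transcript length and to the mapped fragments of the library.

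Imprinted genes are transcribed from only the maternal or only the paternal copy, by DNA methylation that is set in the germ line. In the Dlk1-Dio3 domain the maternal copy gives a long run of noncoding transcripts, Meg3 first, then the RNA antisense to Rtl1, then Rian, which carries small nucleolar RNAs (snoRNAs), and then Mirg, which carries microRNAs. The paternal copy gives the protein genes Dlk1, Rtl1 and Dio3. The domain is active in the embryo, the placenta and the adult brain and is largely silent in adult liver, as are H19 and Igf2, which share a domain on chromosome 7.

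In GENCODE M21 on the mm10 assembly, Meg3 (ENSMUSG00000021268) lies at chr12:109541001-109571726, Rian (ENSMUSG00000097451) at chr12:109603940-109661716 and Mirg (ENSMUSG00000097391) at chr12:109729764-109749460, all on the plus strand. From the start of Meg3 to the end of Mirg the run covers 208 kb. RefSeq on the same assembly (GRCm38.p6) gave promoter windows, 250 bases before to 50 bases after a start, for 8 of the 10 genes. The windows of Meg3 (chr12:109540746-109541045, plus strand) and Peg3 (chr7:6730370-6730669, minus strand) are shown because of a shared sequence. Capitals mark TGACGTCA, the palindrome bound by the CREB family of transcription factors, in both, and the TATA box letters TATAAA in Meg3:
Meg3: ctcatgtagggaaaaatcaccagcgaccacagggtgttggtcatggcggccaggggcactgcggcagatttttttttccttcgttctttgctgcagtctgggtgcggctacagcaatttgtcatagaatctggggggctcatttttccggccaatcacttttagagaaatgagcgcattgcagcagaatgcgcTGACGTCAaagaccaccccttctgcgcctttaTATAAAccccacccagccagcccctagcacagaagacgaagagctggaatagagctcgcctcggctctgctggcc
Peg3: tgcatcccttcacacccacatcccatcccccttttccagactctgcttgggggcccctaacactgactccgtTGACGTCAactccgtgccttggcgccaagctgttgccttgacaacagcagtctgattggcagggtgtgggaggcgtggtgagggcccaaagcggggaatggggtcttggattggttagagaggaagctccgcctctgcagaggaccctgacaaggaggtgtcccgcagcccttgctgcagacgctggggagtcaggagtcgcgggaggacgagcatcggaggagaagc
TGACGTCA begins 57 bases before the start of Meg3 and 178 bases before the start of Peg3. Searched on both strands, it stood in 588 of 32851 promoter windows of all genes (1.79%), and TATAAA in 13.6%. Among the 12 windows of the listed genes, TGACGTCA stood only in these 2, and the windows of Rian, Mirg, Dlk1, Dio3, Igf2 and Copg2 did not hold these letters. TATAAA stood in the windows of Meg3 and Dio3. A match is a description of the letters and not of a bound factor.

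MicroRNAs are cut from the same run of RNA, so their sequences show what the host transcripts carry. RefSeq lists 60 microRNA genes between the start of Meg3 and the end of Mirg, 57 of them on the plus strand, with 2 inside Meg3, 3 inside Rian and 14 inside Mirg. Mature microRNAs of each host are printed with the seed, bases 2 to 8, in capitals, first those of Meg3 and Rian and then those of Mirg:
miR-770-5p: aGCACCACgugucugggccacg
miR-341-3p: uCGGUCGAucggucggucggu
miR-370-3p: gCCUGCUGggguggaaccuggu
miR-382-5p: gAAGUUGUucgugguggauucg
miR-134-5p: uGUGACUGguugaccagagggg
miR-154-3p: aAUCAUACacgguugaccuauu
miR-453: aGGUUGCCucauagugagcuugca
miR-496a-5p: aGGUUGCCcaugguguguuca
miR-409-3p: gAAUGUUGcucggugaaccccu
miR-410-3p: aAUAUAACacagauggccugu
Within Mirg, miR-453 and miR-496a-5p share the seed GGUUGCC. Across the domain 9 seeds were shared by 2 or more of the 113 mature names, 18 names in all. GENCODE places 13 snoRNA genes inside Rian. The table holds 0 rows for any microRNA or snoRNA gene of the domain, so what follows concerns the host transcripts and says nothing of the small RNAs.

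The letters GGACT are the most common setting of m6A, the mark that FTO removes. They stood 16 times in the longest Meg3 transcript (14548 bases), 1.1 per kb, against a median of 1.02 per kb over the longest transcripts of 9498 tested genes of at least 1000 bases. Rian had 0.247 per kb, above 7.31% of those transcripts, and Mirg had 1.57 per kb, above 78.4%. The longest transcripts of these 3 noncoding RNAs, each higher in knockout, lay at different densities of this sequence, with Rian under the lower quartile of 0.632 per kb. The other listed genes ran from 0.424 per kb in Igf2 to 2.62 per kb in H19. In the spliced transcript Meg3-201 of 1988 bases there were 7 matches. That density is above the one of the longest Meg3 transcript and above the upper quartile of 1.48 per kb of the longest transcripts. The place of Meg3 thus depends on the transcript counted. The 200 bases of Meg3-201 with the most matches, bases 1542 to 1741, are printed from GENCODE with GGACT in capitals:
Meg3-201: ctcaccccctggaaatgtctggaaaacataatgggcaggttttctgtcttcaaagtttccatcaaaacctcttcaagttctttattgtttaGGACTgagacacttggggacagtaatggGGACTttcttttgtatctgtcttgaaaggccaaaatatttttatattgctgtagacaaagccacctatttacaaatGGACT
The table does not measure m6A, and a match to these letters does not show that the base is methylated.

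The depth inferred from low values was 34140000 to 42530000 fragments per library, and 115 genes were called higher and 172 lower among the 10405 tested. Wild type replicate 3 stood apart in its group: for 774 genes between 100 and 1000 FPKM its median absolute log2 difference from wild type replicates 1 and 2 was 0.412 and 0.287, against 0.141 between those and 0.12 to 0.189 between knockout libraries. Without it the log2(FPKM + 1) differences described next were 2.59 for Meg3 and 2.4 for Rian.

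Meg3, whose RNA is known as a growth suppressor and a partner of chromatin proteins, stood at 0.611, 0.643 and 0.727 FPKM in wild type libraries 1, 2 and 3. In FTO knockout libraries 1, 2 and 3 it stood at 16.7, 8.7 and 4.49 FPKM. The knockout libraries were thus 25.3, 13.2 and 6.8 times the wild type mean, and the groups did not overlap. The group means were 0.661 ± 0.0599 and 9.97 ± 6.22 FPKM (SD, n = 3 each), and the difference was 2.56 on the log2(FPKM + 1) scale, a scale that understates changes of low genes. Among all 25690 rows Meg3 moved from between the 11081st and 11210th place in the wild type libraries to the 3054th, 4586th and 6655th place in knockout libraries 1, 2 and 3. The wild type libraries lay close together, the highest 1.19 times the lowest, and the knockout libraries were wide apart, the highest 3.72 times the lowest, where the median over tested genes was 1.29 in wild type and 1.24 in knockout.

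Rian showed the same pattern. It stood at 0.415, 0.692 and 0.518 FPKM in wild type libraries 1, 2 and 3 and at 10.9, 7.84 and 4.18 FPKM in knockout libraries 1, 2 and 3. The means were 0.542 ± 0.14 and 7.65 ± 3.37 FPKM (SD, n = 3 each), with a log2(FPKM + 1) difference of 2.41. Tests used the 10405 genes whose mean over all libraries reached 1 FPKM, and among these Meg3 had the 7th and Rian the 11th highest difference. Both were in that set only through their knockout values, since their wild type means lie under 1 FPKM, so their place in it was bound to show a difference. More cells with these RNAs and more of the RNA in each cell cannot be told apart in bulk tissue.

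**Figure D1:**
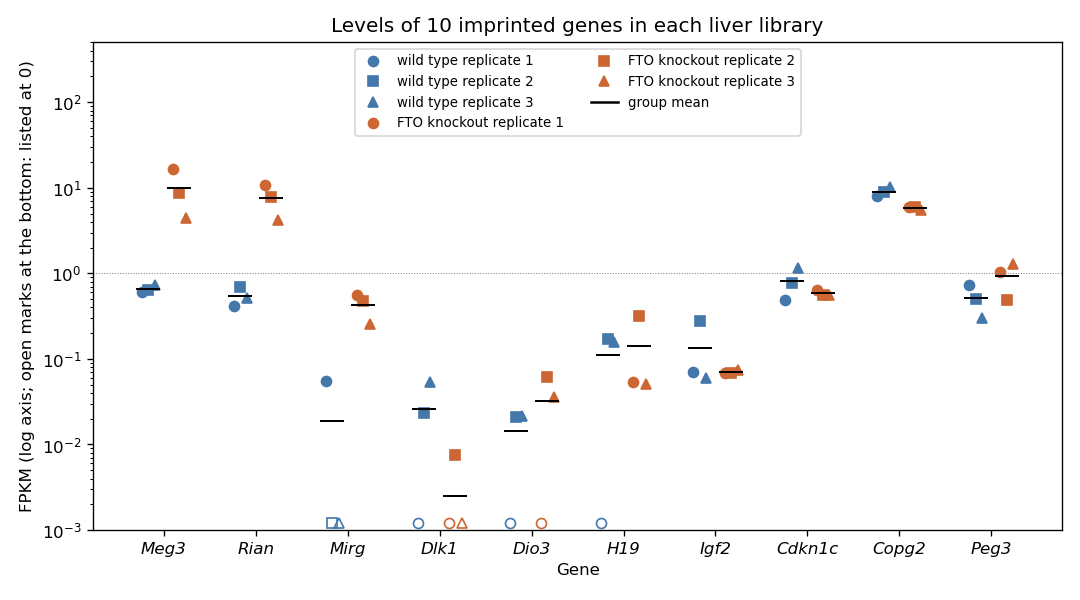
FPKM of the 10 genes in each library on a log axis, with wild type in blue, FTO knockout in orange, replicates by marker shape and black bars for group means. Open marks at the bottom are values listed at 0. Meg3 and Rian lie between 4.18 and 16.7 FPKM in knockout and between 0.415 and 0.727 FPKM in wild type, while Dlk1, Dio3, H19 and Igf2 stay under 0.4 FPKM in every library.

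Mirg, the microRNA host at the far end of the run, was low in every library. It stood at 0.0558 FPKM in wild type replicate 1, was listed at 0 in replicates 2 and 3, and stood at 0.554, 0.479 and 0.256 FPKM in knockout libraries 1, 2 and 3. All knockout libraries were above all wild type libraries. At the lowest inferred depth, 1 fragment on the longest Mirg transcript is worth 0.00766 FPKM, so the wild type signal rests on few fragments and no fold is given. Per length, Mirg stood at 3.31% to 5.71% of Meg3 in the knockout libraries.

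Gm26906, a noncoding gene on the opposite strand that lies within the last part of Meg3, stood at 0.0533, 0.152 and 0.0264 FPKM in wild type libraries 1, 2 and 3. In knockout libraries 1, 2 and 3 it stood at 1.63, 0.787 and 0.649 FPKM, 9.73%, 9.04% and 14.5% of Meg3 in the same libraries. The sources used here do not say how strand was treated, so reads of Gm26906 and of Meg3 cannot be told apart.

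The ratio of Rian to Meg3 is given as a description, since both genes were chosen for a rise that such a ratio cancels. On the FPKM scale it was 0.679, 1.08 and 0.712 in the wild type group and 0.652, 0.901 and 0.931 in the knockout group, in the order of the replicate numbers, so the groups overlapped in this ratio. Meg3, Rian, Mirg and Gm26906 were each highest in knockout replicate 1, intermediate in replicate 2 and lowest in replicate 3. Of the 1198 tested genes whose knockout values all exceeded the wild type values, 91 (7.6%) had their knockout libraries in that order. Those genes include Meg3 and Rian, whose values chose the list. Mirg and Gm26906 were under the limit for tests, and reads of Gm26906 cannot be told apart from those of Meg3. Nothing is read from the shared order. Fto itself stood at 6.67, 6.02 and 6.4 FPKM in wild type libraries 1, 2 and 3. In knockout libraries 1, 2 and 3 it stood at 1.79, 3.83 and 2.66 FPKM, below every wild type library. These were 28.2%, 60.2% and 41.8% of the wild type mean. Limma called Fto lower (adjusted p 0.0386), a call lost in 6 of the 12 alternatives, with adjusted p-values up to 0.146. The least Fto was in knockout replicate 1, which had the most Meg3, but replicate 2 had more Fto than replicate 3 and also more Meg3.

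**Figure D2:**
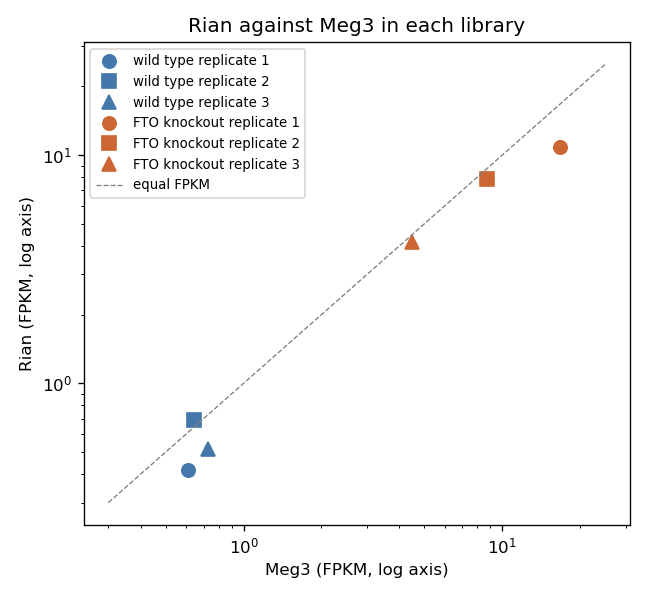
Rian against Meg3 in each of the 6 libraries, both in FPKM on log axes, with wild type in blue and FTO knockout in orange. The dashed line marks equal FPKM. The knockout points spread along the line from 4.49 to 16.7 FPKM of Meg3, and the wild type points lie together near its lower end.

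The protein genes of the same domain gave almost no signal. Dlk1, which encodes a membrane protein related to Notch ligands, was listed at 0, 0.0236 and 0.0542 FPKM in wild type libraries 1, 2 and 3 and at 0, 0.00747 and 0 FPKM in knockout libraries 1, 2 and 3. Dio3, the deiodinase that inactivates thyroid hormone, stood at 0, 0.0208 and 0.0217 FPKM in wild type and at 0, 0.0608 and 0.0363 FPKM in knockout libraries 1, 2 and 3. On their longest transcripts 1 fragment is worth 0.0063 FPKM for Dlk1 and 0.0144 FPKM for Dio3, so these values are a handful of fragments, the groups overlapped, and a difference was not detectable at this depth. Rtl1, a protein gene derived from a retrotransposon, was above 0 only in knockout replicate 2, at 0.0045 FPKM, and Begain was listed at 0 in every library. In all, 8 of the 14 rows between Begain and Dio3 were above 0 in some library. The remaining rows above 0 were those of Meg3, Gm26906, Rian, Mirg and B830012L14Rik, the last of which was above 0 only in knockout replicate 2, at 0.00643 FPKM.

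The genes next to the domain had no called change. Of the 30 genes above 0 that start within 1 Mb of either end, 13 were tested, and limma called 0 of them in either direction at an adjusted p under 0.05; before adjustment 0 higher and 1 lower passed 0.05. Of all 10405 tested genes 2.76% were called, and before adjustment 900 higher and 1043 lower passed, so 1 of 13 is near that share. The neighbours' median difference was 0.07 on the log2(FPKM + 1) scale. Cyp46a1, the brain-type cholesterol 24-hydroxylase, stood at 2.15, 2.98 and 3.39 FPKM in wild type and 0.954, 1.74 and 0.739 FPKM in knockout libraries 1, 2 and 3 (limma adjusted p 0.0691), and was called, as lower, without knockout replicate 2. Hsp90aa1, a cytosolic chaperone, stood at 50.2, 56.1 and 42.2 FPKM in wild type and 108, 52.5 and 66.2 FPKM in knockout libraries 1, 2 and 3, with overlapping groups. Yy1, a DNA-binding factor, stood between 10.2 and 15.4 FPKM in all 6 libraries.

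**Figure D3:**
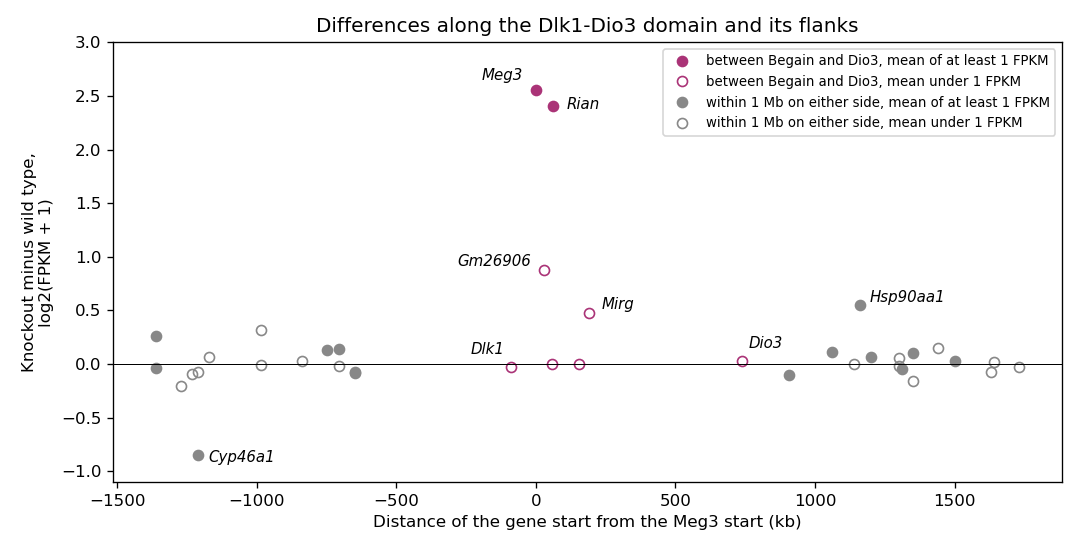
Difference between knockout and wild type on the log2(FPKM + 1) scale for every gene above 0, against the distance of its start from the start of Meg3 in kb. Purple points lie between Begain and Dio3, grey points within 1 Mb on either side, and open points have a mean under 1 FPKM. Meg3 (2.56) and Rian (2.41) stand above all others, and the flanking genes lie between -0.85 and 0.55.

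H19 and Igf2 were near the limit of detection in both groups. H19, a maternally expressed noncoding RNA abundant in fetal liver, stood at 0, 0.173 and 0.156 FPKM in wild type libraries 1, 2 and 3 and at 0.0539, 0.319 and 0.0516 FPKM in knockout libraries 1, 2 and 3. Igf2, the fetal growth factor expressed from the paternal copy, stood at 0.0694, 0.275 and 0.0591 FPKM in wild type and at 0.0681, 0.0687 and 0.075 FPKM in knockout. Each had overlapping groups and a mean too low for the set of tested genes. With the lower limit of 0.1 FPKM and a pseudocount of 0.1, the H19 difference was 0.16 with a 95% interval of -1.09 to 1.41 (limma, adjusted p 0.918), and that of Igf2 was -0.34 with an interval of -1.19 to 0.51 (limma, adjusted p 0.688). Those intervals are wide, so they bound the changes only loosely. Igf2 passes the limit of 0.1 FPKM only through its wild type values, its knockout mean being 0.0706 FPKM, so its test supports nothing.

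Cdkn1c, which encodes a cell cycle inhibitor of the same arm of chromosome 7, stood at 0.484, 0.765 and 1.16 FPKM in wild type and at 0.646, 0.558 and 0.563 FPKM in knockout libraries 1, 2 and 3. The knockout libraries lay within the range of the wild type libraries. Peg3, a zinc finger gene expressed from the paternal copy, stood at 0.74, 0.507 and 0.301 FPKM in wild type and at 1.03, 0.492 and 1.3 FPKM in knockout libraries 1, 2 and 3. Replicates 1 and 3 were above all wild type libraries and replicate 2 was below the wild type mean of 0.516. With the lower limit the difference was -0.32 for Cdkn1c (95% interval -0.99 to 0.34, limma adjusted p 0.611) and 0.73 for Peg3 (-0.16 to 1.63, adjusted p 0.377). At that setting 2.53% of 14307 genes were called, and 0 of the 4 genes H19, Igf2, Cdkn1c and Peg3. Of these, Igf2 was in the set only through its wild type values.

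Copg2 was the other listed gene whose groups did not overlap, and it went down. It encodes a coat protein of vesicles that travel between the Golgi and the endoplasmic reticulum, lies at chr6:30747554-30896794 on the minus strand beside the imprinted gene Mest, and is imprinted in some tissues of the mouse. It stood at 8.0, 8.85 and 10.2 FPKM in wild type libraries 1, 2 and 3 and at 5.92, 5.9 and 5.56 FPKM in knockout libraries 1, 2 and 3. The means were 9.0 ± 1.09 and 5.79 ± 0.199 FPKM (SD, n = 3 each), a 1.55-fold decrease with a log2(FPKM + 1) difference of -0.55 (SE 0.113, 95% interval -0.81 to -0.29, limma adjusted p 0.0492). Of all tested genes, 1.65% were called lower. Groups that did not overlap were found in 24.5% of tested genes. Among the listed genes these were Copg2 and, upward, Meg3, Rian and Mirg, but Meg3 and Rian were chosen for this and Mirg was under the limit for tests, so nothing is read from that count. The Copg2 call was at the threshold: it was lost in 8 of 12 alternatives, among them the omission of any single library, with adjusted p-values from 0.0408 to 0.181 over the alternatives and 0.0528 without wild type replicate 3. Of the 6 other tested genes within 500 kb of Copg2, limma called 0. Mest, an imprinted gene of the alpha/beta hydrolase family, stood at 0.305, 0.277 and 0.898 FPKM in wild type and at 0.104, 0.331 and 0.418 FPKM in knockout libraries 1, 2 and 3.

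A wider list of imprinted genes held 1 call, that of Copg2. Without Meg3, Rian and Mirg the list held 71 genes, of which 62 had a row and 26 were tested; 36 were under 1 FPKM. Imprinting of many of these is limited to placenta or brain, and the copy in use was not measured here. Limma called 0 higher and 1 lower (Copg2), and before adjustment 0 higher and 5 lower passed 0.05, where 900 higher and 1043 lower of all 10405 tested genes did. With no filter on low genes Calcr, the calcitonin receptor gene, was called as higher, at levels of 0.0756 FPKM or less. Differences ran from -0.82 to 0.24 with a median of -0.07, where the median of all tested genes was -0.002, and 17 of the 26 were below 0 (65.4%, against 50.3% of all tested genes). Groups did not overlap for 8 lower genes (30.8%, against 13.0% of all tested genes) and for 1 higher gene (3.85%, against 11.5%).

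The lower end of that list held the neighbouring genes of a pair of transporters. Slc22a3, an organic cation transporter gene of the Igf2r domain, stood at 1.74, 1.78 and 2.73 FPKM in wild type and at 0.479, 1.05 and 0.69 FPKM in knockout libraries 1, 2 and 3 (difference -0.82, limma adjusted p 0.0511), and it was called in 3 of the 12 alternatives. Its knockout mean lies under 1 FPKM, so it was in the tested set only through its wild type values. Its neighbour Slc22a2 stood at 1.58, 2.0 and 2.44 FPKM in wild type and at 1.05, 1.37 and 1.33 FPKM in knockout (limma adjusted p 0.163). Cd81, a tetraspanin gene beside the Kcnq1 domain of chromosome 7, stood at 126, 121 and 97.4 FPKM in wild type and at 81.1, 68.9 and 80.7 FPKM in knockout (limma adjusted p 0.0853). In all 3 the groups did not overlap.

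Low imprinted genes with groups that did not overlap, named after their values were seen, included Ndn and Phlda2. The groups of Tnfrsf23, lower, and of Phactr2 and Calcr, higher, did not overlap either. Such groups were found in 24.5% of tested genes, and the share among low genes was not computed, so nothing is read from these genes. Ndn, a paternally expressed gene of the Prader-Willi region, stood at 0.509, 0.589 and 0.521 FPKM in wild type and at 0.302, 0.326 and 0.153 FPKM in knockout libraries 1, 2 and 3. Phlda2, a maternally expressed growth regulator, stood at 0, 0.0471 and 0.049 FPKM in wild type and at 0.199, 0.252 and 0.161 FPKM in knockout. With the limit and pseudocount of 0.1 FPKM the Ndn difference was -0.86 (limma adjusted p 0.129). Phlda2 passes that limit only through its knockout values and is given without a test.

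**Figure D4:**
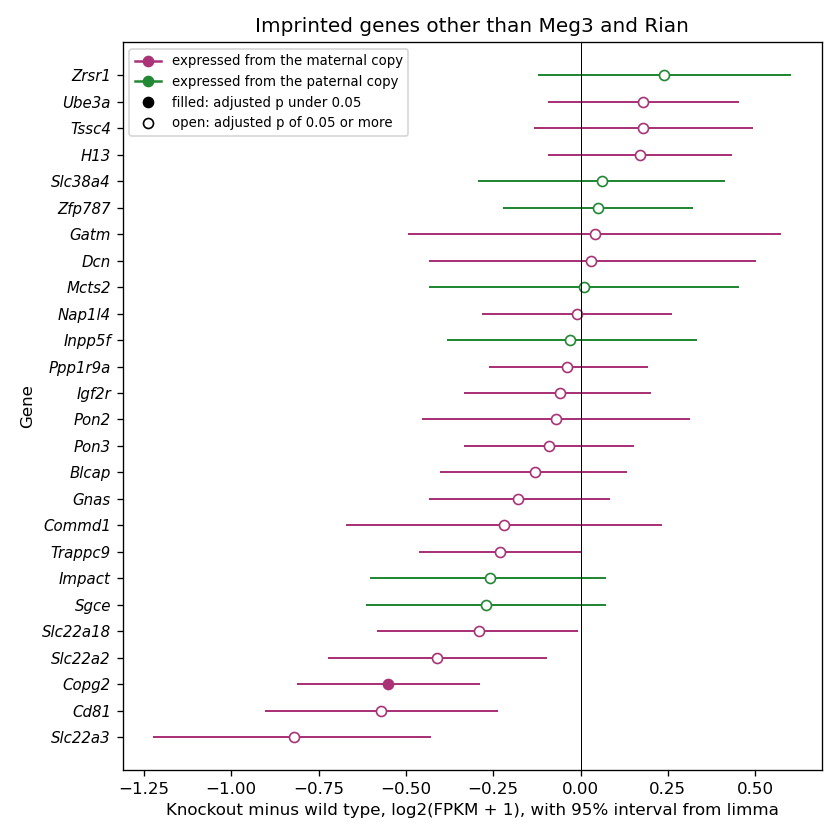
Difference between knockout and wild type on the log2(FPKM + 1) scale for the 26 tested imprinted genes other than Meg3 and Rian, with 95% intervals from limma, coloured by the parental copy that is expressed where the gene is imprinted. Filled points have an adjusted p under 0.05, which is Copg2 alone. The values run from -0.82 for Slc22a3 to 0.24 for Zrsr1.

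No tested gene that sets or keeps imprints was called. Of 29 genes of DNA methylation, imprint maintenance and Polycomb repression, 19 were tested, with 0 calls by limma in either direction; before adjustment 2 higher and 0 lower passed 0.05. These shares are near those of all tested genes, 2.76% called and, before adjustment, 900 higher and 1043 lower of 10405. Trim28, the corepressor that holds methylation at imprints, stood at 10.8, 10.4 and 9.88 FPKM in wild type and at 13.5, 11.9 and 12.5 FPKM in knockout libraries 1, 2 and 3 (limma adjusted p 0.222). Dnmt3a, a methyltransferase gene, stood at 1.5, 1.62 and 2.45 FPKM in wild type and at 3.01, 3.61 and 2.07 FPKM in knockout (limma adjusted p 0.254). Zfp445, a zinc finger gene that recognises imprints, stood at 12.5, 16.7 and 17.5 FPKM in wild type and at 12.9, 12.5 and 12.2 FPKM in knockout (limma adjusted p 0.342). Among the low genes of this list, Uhrf1 and Hells had groups that did not overlap and are named after their values were seen. Groups that did not overlap were found in 24.5% of all tested genes, so nothing is read from them. Uhrf1, which guides maintenance methylation in dividing cells, stood at 0.187, 0.108 and 0.159 FPKM in wild type and at 0.0171, 0.026 and 0.0337 FPKM in knockout, too low for either limit. Hells, a chromatin remodeller, stood at 0.225, 0.436 and 0.29 FPKM in wild type and at 0.691, 0.675 and 0.441 FPKM in knockout (limma adjusted p 0.187 at the limit of 0.1 FPKM). DNA methylation itself was not measured.

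Among genes that liver switches off after birth, and their regulators, Lpl rose, and others differed in both directions. Of 22 such genes 6 were tested, and limma called 2 higher (Tff3 and Lpl) and 0 lower, where 1.11% of all tested genes were called higher and 1.65% lower. Tff3, a trefoil peptide of mucous surfaces, stood at 0.191, 0.181 and 0.284 FPKM in wild type and at 7.18, 5.35 and 7.61 FPKM in knockout libraries 1, 2 and 3. Like Meg3 and Rian it was in the tested set only through its knockout values, so it is given as a description and its call supports nothing. Lpl, the lipoprotein lipase gene, stood at 1.13, 1.25 and 1.18 FPKM in wild type and at 2.2, 2.46 and 3.16 FPKM in knockout (limma adjusted p 0.028), a call lost in 5 of the 12 alternatives, with adjusted p-values up to 0.105. Hmga1, a chromatin protein gene of growing cells, stood at 8.6, 7.59 and 6.96 FPKM in wild type and at 11.4, 11 and 10.7 FPKM in knockout, without overlap (limma adjusted p 0.0719). Ly6d, a gene of the Ly6 family, stood lower without overlap, at 2.2, 6.25 and 29.7 FPKM in wild type and at 1.13, 0.688 and 1.69 FPKM in knockout (limma adjusted p 0.175), and it was called as lower without wild type replicate 1. Afp, the classic marker of fetal liver, stood between 0.261 and 0.53 FPKM in all 6 libraries with overlapping groups. Zhx2 and Zbtb20, which encode repressors of Afp, stood between 1.79 and 3.49 FPKM and between 3.1 and 4.04 FPKM and were not called.

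Among tested genes, predicted models left out, those most like the mean of Meg3 and Rian over the 6 libraries were Grb7, Cln6, Cyp2c70, Kcp, Ccnl2 and Ap1m1. Likeness was the Pearson correlation of log2(FPKM + 1), with r from 0.975 to 0.994. With 2 groups of 3 libraries such values largely reflect the group difference, and they are given as a description. Grb7, an adaptor of receptor tyrosine kinases, stood at 24.1, 24.8 and 24.2 FPKM in wild type and at 34.2, 32.6 and 30.6 FPKM in knockout libraries 1, 2 and 3, so its change was far smaller than that of Meg3. Cyp2c70, a P450 enzyme of bile acid synthesis, stood at 121, 121 and 122 FPKM in wild type and at 303, 287 and 249 FPKM in knockout. Ccnl2, a cyclin gene linked to splicing, stood at 33, 29.4 and 29.6 FPKM in wild type and at 55.7, 47.9 and 39.1 FPKM in knockout.

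Among 14 genes of glucose output, thyroid hormone, Notch and CREB signalling, fields in which products of the domain or the sequence TGACGTCA have a known part, 13 were tested, with 0 calls by limma in either direction; before adjustment 2 higher and 2 lower passed 0.05. Over all 10405 tested genes 2.76% were called, and 900 higher and 1043 lower passed before adjustment. Crem, which encodes a factor of the CREB family, stood at 17.5, 21.9 and 27.2 FPKM in wild type and at 54.1, 25.5 and 38.9 FPKM in knockout libraries 1, 2 and 3, with overlapping groups (limma adjusted p 0.19). G6pc, the glucose-6-phosphatase gene, stood at 160, 198 and 132 FPKM in wild type and at 135, 77.7 and 87.5 FPKM in knockout (limma adjusted p 0.161). Thrsp, a thyroid hormone responsive gene, stood at 134, 256 and 1270 FPKM in wild type and at 52.1, 188 and 63.8 FPKM in knockout (limma adjusted p 0.237), with wild type replicate 3 far above the others.

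Some marker sums of other cell types moved with the groups and others did not, and their part in the Meg3 values was not tested. The summed level of 16 markers of stellate cells and fibroblasts was 127 to 194 FPKM in wild type and 112 to 163 FPKM in knockout. The 14 endothelial markers summed to 88.7 to 190 FPKM in wild type and 113 to 154 FPKM in knockout. Of the 7 neuronal markers with a row, Snap25 and Nefl were listed at 0 in every library, and their sum of 2.46 to 2.65 FPKM in wild type and 3.75 to 4.95 FPKM in knockout was mostly Syt1 (limma adjusted p 0.0522). Of the 8 markers of pancreas and intestine, Prss1, Pnlip, Cpa1, Ins1 and Gcg were listed at 0 in every library, and the sum of 22.2 to 24.3 and 29.0 to 44.7 FPKM was mostly Cela1. Both of these sums were higher in every knockout library than in any wild type library, and the adipocyte sum given below was lower in every one. Among single tested genes 11.5% were higher without overlap and 13.0% lower. The 12 Kupffer cell markers summed to 74.4 to 255 FPKM in wild type and 212 to 373 FPKM in knockout, with overlapping groups. All 12 of their differences were above 0, with a median of 0.89, and 5 passed before adjustment while 0 were called by limma. Marco, a scavenger receptor gene of macrophages, stood at 1.07, 1.61 and 0.908 FPKM in wild type and at 5.12, 1.67 and 6.77 FPKM in knockout, without overlap (limma adjusted p 0.135), and it was called without knockout replicate 2. Lyz2, the macrophage lysozyme gene, stood at 10.7, 20.1 and 46.9 FPKM in wild type and at 61.7, 44.0 and 81.7 FPKM in knockout (limma adjusted p 0.163). The 12 lymphocyte markers summed to 2.86 to 5.36 FPKM in wild type and 3.46 to 5.46 FPKM in knockout, the 11 bile duct markers to 201 to 224 and 214 to 241 FPKM, and the 6 adipocyte markers to 17.8 to 45.4 and 11.5 to 14.9 FPKM. Of 45 tested markers of these 8 cell types, limma called 0 higher and 1 lower (Cfd), with 7 higher and 2 lower before adjustment at 0.05, where 2.76% of all 10405 tested genes were called and 900 higher and 1043 lower passed before adjustment. Cfd was in the tested set only through its wild type values. Without wild type replicate 3 limma called 10, among them the Kupffer cell genes Clec4f, Vsig4 and C1qa. Over all genes that fit called 312 higher and 240 lower, against 115 and 172 with all 6 libraries, so calls rose beyond these markers too. All 11 hepatocyte markers with a row were tested, with Alb listed at 0 in 2 libraries, and some of them moved with the groups too. Of their differences 7 were above 0, with a median of 0.31. Alb, Apob, Asgr1 and Tat lay below 0 with overlapping groups. In this list 6 were higher without overlap, where 11.5% of all tested genes were. Limma called 1 higher. This was Ahsg, a secreted plasma protein gene, at 2900, 2870 and 2960 FPKM in wild type and 4220, 4650 and 4770 FPKM in knockout (limma adjusted p 0.0425), a call lost in 9 of the 12 alternatives, with adjusted p-values up to 0.201.

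**Figure D5:**
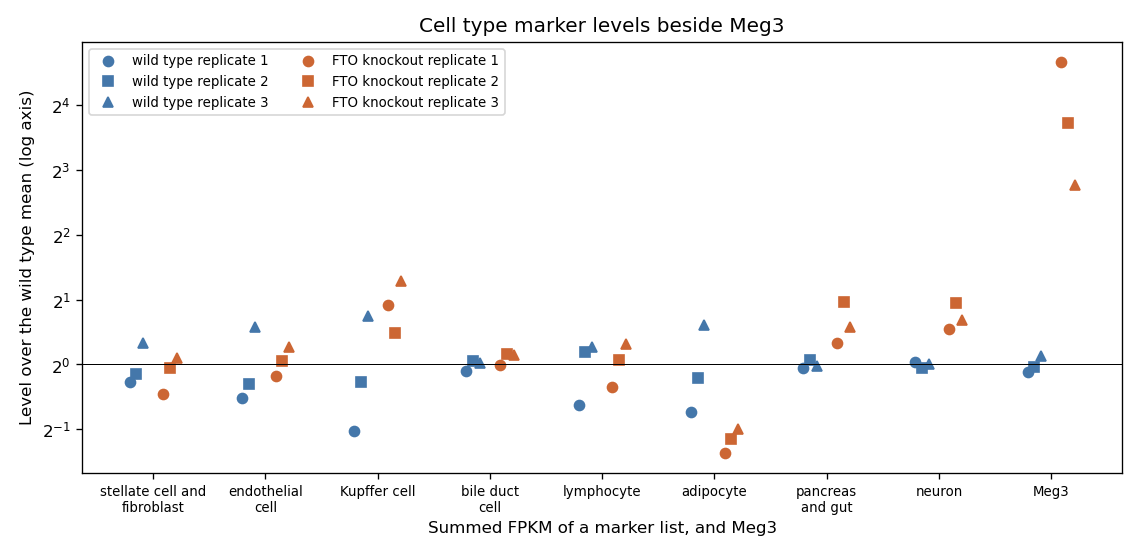
Summed FPKM of 8 cell type marker lists, and Meg3, in each library, divided by the wild type mean and drawn on a log axis, with wild type in blue and FTO knockout in orange. Meg3 lies at 6.8 to 25.3 times the wild type mean in knockout, and the marker lists lie between 0.387 and 2.45 times it.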

How the data were processed

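The 6 liver libraries were grouped by their genotype label. The authors deposited FPKM per Ensembl gene. The submitters' processing notes name Cufflinks 2.2.1, TopHat2 2.1.0, HTSeq and the mouse build mm10, without roles; no annotation release is stated. Many values carry more digits than Cufflinks prints, and whether the authors averaged runs is not stated. GENCODE M21 on that assembly (GRCm38) gave symbols and positions for 24807 of 25690 identifiers. Promoter and microRNA sequences came from RefSeq (GRCm38.p6) and transcripts from GENCODE M21. An exact 0 can be a failed estimate. Low FPKM values in single-transcript genes (3000 to 8000 bases) were read as 1 fragment where this gave 25000000 to 50000000 fragments per library, and the median was taken as the depth; a wider window of 20000000 to 60000000, chosen after seeing the data, gave 34090000 to 42310000; values in fragments are approximate, since Cufflinks shares reads among transcripts.

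Log2(FPKM + 1) was fitted with limma 3.58.1 in R 4.3.3 (intensity trend, two-sided) for 10405 genes, those reaching 1 FPKM on average, and p-values were adjusted over all of them (Benjamini-Hochberg), with 0.05 as the threshold. The fit was tested on simulated data. A gene under the limit has its values and no test. Folds are ratios of mean FPKM. The members and the gene lists were chosen with earlier results of these data known. Named genes are the 10 members, other genes of the domain above 0, and called genes of each list with up to 3 more by smallest p. The 6 tested genes most correlated with Meg3 and Rian, predicted models left out, were candidates for naming too. Others are named as examples after their values were seen. The alternatives were a pseudocount of 0.1, no filter, a mean of at least 0.1 FPKM with a pseudocount of 0.1, median ratio scaling, quantile normalization, robust empirical Bayes and leaving out each library.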

Additional observations from a re-analysis of the deposited data

How the results depend on the processing

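Meg3 and Rian kept a positive difference in every alternative run. Their differences of 2.56 and 2.41 became 3.53 and 3.51 with a pseudocount of 0.1 FPKM, with or without the lower limit of 0.1 FPKM, because a smaller pseudocount compresses low values less. With single libraries left out they ran from 2.14 to 2.98 for Meg3 and from 2.14 to 2.74 for Rian. Copg2 kept its direction: its difference was -0.55 with no filter (limma adjusted p 0.0815), -0.62 with the limit and pseudocount of 0.1 FPKM (limma adjusted p 0.054) and -0.63 to -0.47 with single libraries left out, and the call was lost in each of these; the cause was not tested.

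Of the wider imprinted genes 1 was called, and the count was 0 with the limit and pseudocount of 0.1 FPKM. It was 2 with median ratio scaling, quantile normalization or robust empirical Bayes, where Slc22a3 joined Copg2. Slc22a3 was in the tested set only through its wild type values. With single libraries left out the count was 0 to 1, where the 1 was Cd81, without wild type replicate 3. With no filter the 1 called was Calcr, higher in knockout, which was at 0.0756 FPKM or less in every library. Of genes silenced after birth, the count of 2 (Tff3 and Lpl) became 1 with no filter and 1 to 2 with single libraries left out, where without wild type replicate 1 the 2 were Tff3, higher, and Ly6d, lower. Among the domain's neighbours the count of 0 ran from 0 to 1. For the other cell types the count of 1 became 2 with a pseudocount of 0.1 FPKM, no filter, quantile normalization or robust empirical Bayes, and 1 to 10 with single libraries left out. Over all genes, 115 higher became 180 with quantile normalization and 43 to 312 with single libraries left out, and 172 lower became 93 with no filter and 49 to 240 with single libraries left out. The median difference over all genes lay between -0.033 and 0.016 in every alternative.

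No paired analysis was possible because the numbers in the sample names are not shared between the groups. The depth limits Mirg, Dlk1, Dio3, H19 and Igf2, for which single fragments move the values, and groups of 3 libraries leave wide intervals for low genes.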
